A study of Brassica napus with 48 samples.

Results

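In flower buds of oilseed rape (Brassica napus), 55 of 22746 probe sets had their highest fertile signal in the smallest buds and were lower at both later sizes in 2 lines. They were selected on the fertile arrays alone. On the scale of log2(signal + offset), with 1 fixed offset near the lower quartile of the arrays, the mean of the 4 arrays of fertile small buds had to exceed that of middle buds by at least 0.8 and that of large buds by at least 0.8, in line J10 and in line J03 alike. The mean signal of fertile small buds over both lines had to be at least 500. The falls in fertile buds therefore describe how the members were chosen and were not tested. The tests below were made in sterile buds, which the choice did not use.

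The lines carry dominant genic male sterility, in which a dominant allele Ms stops pollen formation and a dominant allele Rf restores it. Sterile J10 plants (J10A) were MsMsrfrf and fertile J10 plants (J10B) MsMsRfrf, so both carried Ms and differed at Rf. Sterile J03 plants (J03A) were Msmsrfrf and fertile J03 plants (J03B) msmsrfrf, so these differed at Ms and none carried Rf. Plants were field-grown and untreated as far as the labels say. Buds were taken whole, with stamens and pistils, from pooled inflorescences of several plants of a line. Small buds (under 1 mm) stood for the tetrad stage, middle buds (1 to 3 mm) for uninucleate microspores and large buds (over 3 mm) for trinucleate pollen. The 12 groups of line, fertility and size held 4 arrays each, read here as 2 replicates with 2 hybridisations each.

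At the tetrad stage the 4 products of meiosis are still held in a callose wall, and the tapetum, the cell layer lining the anther locule, is active. Microspores are then released, the tapetum breaks down, and petals, stamens and pistil enlarge until flowering. Whole buds hold all of these tissues together with sepals. In such bulk samples fewer cells of a type and less RNA per cell cannot be told apart.

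Signals came from Arabidopsis ATH1 arrays, so a gene name stands for the probe set designed for that Arabidopsis gene. A signal compares samples for 1 probe set, not probe sets with each other, and where J10 and J03 differ in sequence or copies of a gene their signals can differ for that reason; this was not tested. Array medians ran from 339 to 410.1, and the correlation of 2 arrays within a group was 0.748 to 0.882. The array least like its group, the second hybridisation of replicate 2 of sterile J10 middle buds, had a median r of 0.750. The ratio of 3' to 5' control signals, a measure of RNA integrity, was 1.50 to 1.95 in sterile J10 replicates and 0.728 to 1.49 in all others. Anther markers followed the labelled stages in part. The tapetum gene AT5G07230 (A9) averaged 727 in small, 6688 in middle and 1617 in large fertile J10 buds, and 1718, 4884 and 1045 in fertile J03 buds, but stayed at 4556 in large sterile J10 buds after 4406 in middle ones. SHT, AMS and EMS1, also tapetum genes, showed smaller drops or none from middle to large fertile buds. In the same order of sizes SHT averaged 274, 7330 and 9173 in fertile J10 and 317, 14375 and 11273 in fertile J03. AMS averaged 768, 1781 and 1660 in J10 and 1091.5, 1980 and 1528.5 in J03. EMS1 averaged 764, 745 and 791 in J10 and 605, 754 and 617 in J03. The pollen actin ACT12 averaged 590.4 and 1159 in large fertile buds of J10 and J03, against 245 and 158 in large sterile buds. The transporter gene SWEET8 was highest in middle fertile buds, at 691 in J10 and 790 in J03. It read 619 and 644 in large fertile against 625 and 616 in large sterile buds. The meiosis gene SPO11-2 read 419, 467 and 493 in small, middle and large fertile J10 buds.

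Of the 55 members, 21 were paired with 1 Arabidopsis gene, 3 with several, and 31 were unnamed here. Their median signal in small fertile buds was 1452, against 361 over all probe sets. Probe sets with shared probes (suffix _s or _x) made up 4 of the 55, or 7.27%, against 4.66% of all. The rule was met by 94 probe sets in fertile J10 and by 227 in fertile J03, so the 55 members were 58.5% of the first set and 24.2% of the second. Without the minimum signal, 62 probe sets met the fall in both lines. All 55 passed the filter on dim probe sets. Of these, 53 would also have passed on the sterile groups alone, and the others entered the tests only through fertile groups.

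In fertile buds the median member was 1.20 lower in middle and 1.19 lower in large than in small J10 buds, and 1.53 and 1.51 lower in J03. The largest mean falls over both lines and both later sizes were 2.96 for 267461_at, 2.94 for 260023_at, 2.20 for 245668_at and 2.19 for 261901_at, all unnamed. Among members with 1 gene they were 2.13 for AT1G12010, 2.08 for AT4G28703 and 2.02 for GID1B. Just inside the rule, AT5G03610 had a smallest fall of 0.80, AT1G25275 of 0.801 and 248389_at of 0.802. Just outside it, AT5G12010 had 0.799, AT2G34620 0.798 and 247490_at 0.797. At the signal limit, AT5G11350 with 523.0, AT1G61660 with 524.0 and 246218_at with 534 were the dimmest members, and 247625_at with 473, 264070_at with 445 and 258377_at with 433 met the fall but not the signal.

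**Figure D1:**
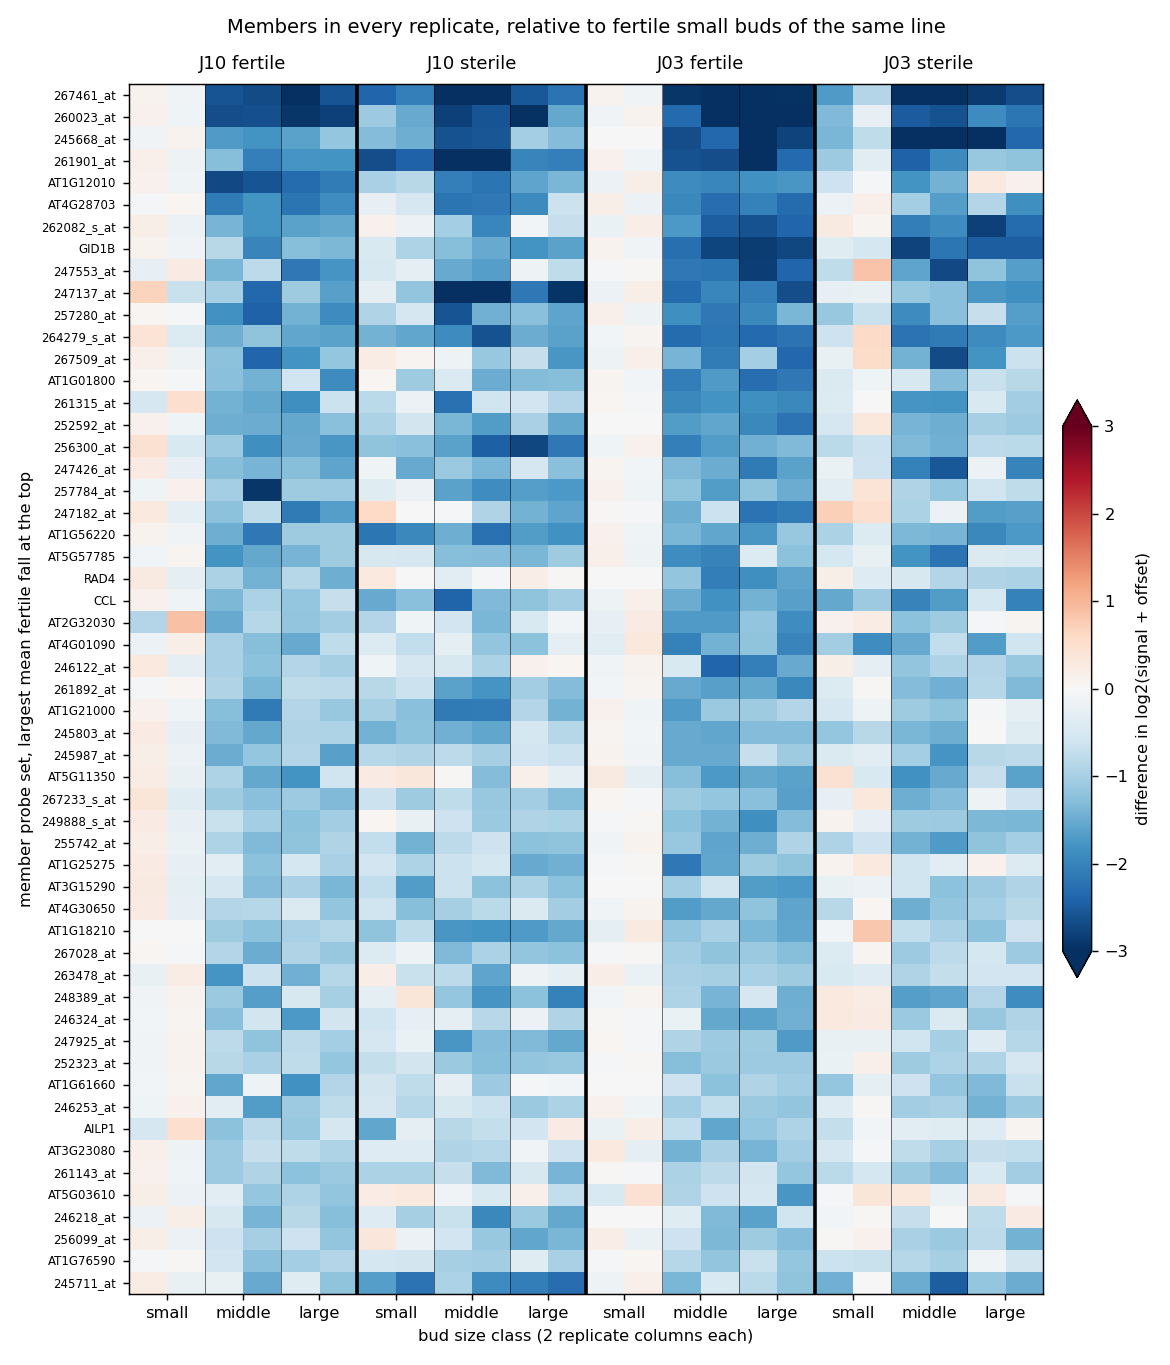
Difference in log2(signal + offset) of each of the 55 members (rows, largest mean fertile fall at the top) from the fertile small-bud mean of its line, in all 24 replicates (columns, mean of 2 hybridisations each), blue for lower and red for higher; the scale stops at 3 in either direction. The blue of fertile middle and large buds is set by the rule; small buds of sterile J10 are bluer than those of sterile J03, with median differences from fertile small buds of -0.71 and -0.23.

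The first question was whether the members also fell with bud size in plants that make no pollen. In sterile J10, 8 of 55 members fell from small to middle buds and none rose, against 0.185% of all 14021 tested probe sets called lower. From small to large buds 6 fell and none rose, against 0.428%. In sterile J03, 21 fell from small to middle buds and none rose, against 0.72%. From small to large J03 buds 15 fell, against 0.963%, and 1 rose, 245803_at, against 0.977% called higher. Calls are limma's at a Benjamini-Hochberg adjusted p under 0.05 over all tested probe sets. The rise of 245803_at (0.78, SE 0.19, adjusted p = 0.0279) was lost without small replicate 1 or large replicate 1 of sterile J03 (adjusted p = 0.304 and 0.308).

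The median change of the 55 members was -0.77 in middle and -0.32 in large sterile J10 buds, and -1.05 and -0.64 in sterile J03, while that of all tested probe sets lay between -0.02 and -0.01. In middle buds 47 members had a change below 0 in J10 and 53 in J03; in large buds these numbers were 39 and 48. Across all tested probe sets the shares below 0 were 50.8% to 52.6%. Of the 55 members, 27 had a called fall in none of the 4 sterile comparisons, 11 in 1, 12 in 2, 5 in 3 and none in all 4. The matching shares over all tested probe sets were not computed, and a missing call does not show that a member did not fall. When a replicate is left out, the number of calls over all tested probe sets changes too. Leaving out 1 sterile replicate took the number of falls to between 1 and 7 in middle J10, with 1 left without either small replicate and 2 without middle replicate 2. It took large J10 to between 0 (without small replicate 1) and 3, middle J03 to between 9 (without small replicate 2) and 15, and large J03 to between 5 (without small replicate 2) and 11.

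**Figure D2:**
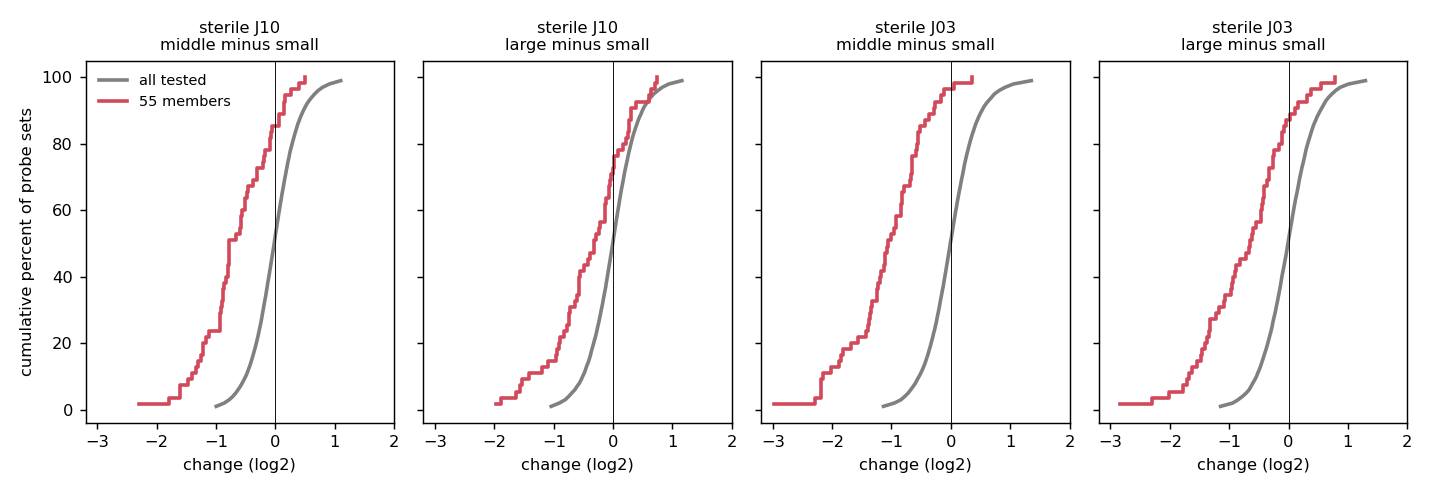
Cumulative percent of probe sets (vertical axis) by their log2 change from small buds (horizontal axis) in sterile plants, for the 55 members (red steps) and for percentiles 1 to 99 of all tested probe sets (grey line), 1 panel per line and size. The members lie to the left of all tested probe sets, with medians of -0.77 and -0.32 in J10 and -1.05 and -0.64 in J03.

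In middle buds 5 members fell in both lines, against 0.0499% of tested probe sets, 3 in J10 without a call in J03, against 0.136%, and 16 in J03 without a call in J10, against 0.67%. In large buds 3 fell in both lines, against 0.207%. Within J03, 11 members fell at both later sizes, against 0.307%, and within J10, 2, against 0.0927%. A call in 1 line alone does not show that the lines differ, and the test of that difference is given further on. Applied to sterile buds, the 0.8 fall at both sizes was met by 11 members in J10 and 23 in J03, against 0.799% and 1.25% of tested probe sets. It was met in both lines by 8 members, against 0.15% of tested probe sets: AT4G28703 and the unnamed 247137_at, 247182_at, 248389_at, 256099_at, 257784_at, 260023_at and 267509_at. As a description over the 55 members, the changes of sterile J10 and sterile J03 correlated with r = 0.448 for middle and 0.40 for large buds; within a line, each change shares its small buds with the other.

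**Figure D3:**
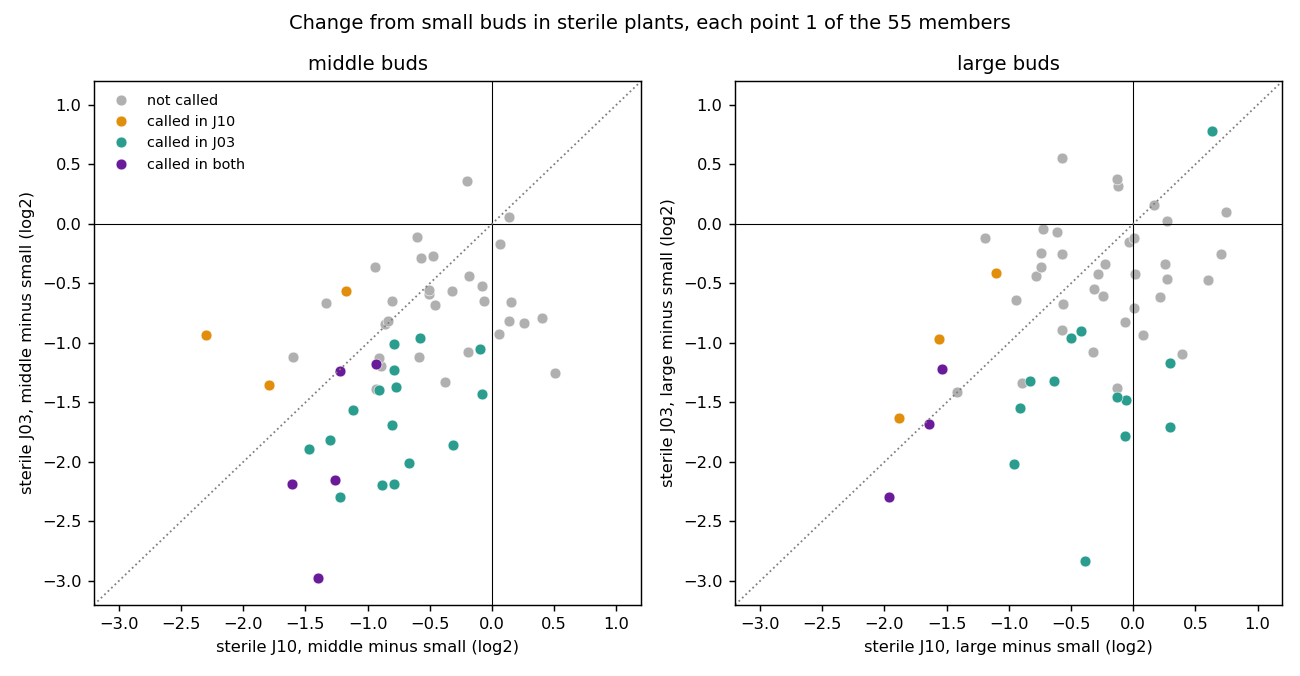
Log2 change from small buds of each of the 55 members in sterile J10 (horizontal axis) and sterile J03 (vertical axis), for middle (left) and large (right) buds, coloured by whether limma called the change in J10, J03, both or neither; the dotted line marks equal changes. Most points lie below the dotted line in middle buds, and 245803_at is the called point above 0 in large buds.

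Among members with 1 gene, GID1B and AT1G12010 act in hormone pathways. GID1B encodes a gibberellin receptor, which on binding the hormone has DELLA growth repressors degraded. Fertile J10 gave GID1B signals of 603 and 507 in small, 261 and 55 in middle and 163 and 147 in large buds, and fertile J03 1180.2 and 1019 in small, 138 and 66.1 in middle and 53.8 and 70.6 in large buds. Sterile J03 gave 827 and 733 in small, 62.2 and 158 in middle and 106 and 105 in large buds. The small buds of sterile J03 lay above all its later buds without overlap, and GID1B fell by 2.01 in middle (SE 0.37, adjusted p = 0.00238) and by 2.02 in large buds (SE 0.37, adjusted p = 0.00295). The middle call was lost without middle replicate 1 of sterile J03 (adjusted p = 0.07), and the large call held in all 13 alternatives. Sterile J10 started lower, with 371 and 240.1 in small, 161 and 121 in middle and 78.4 and 107 in large buds. Its changes of -0.66 and -0.96 did not pass (adjusted p = 0.616 and 0.289), and the 95% intervals were -1.48 to 0.15 and -1.77 to -0.14.

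AT1G12010 encodes an ACC oxidase, the enzyme of the last step of ethylene synthesis. In fertile J10 its signals were 5932 and 5023 in small, 734 and 814 in middle and 1008 and 1183 in large buds, and in fertile J03 4146 and 5406 in small, 1201 and 1130.3 in middle and 1269 and 1329 in large buds. Sterile J10 buds read 2708 and 3014 in small, 1231 and 1107 in middle and 1754 and 2034 in large buds, a fall of 1.22 by the middle stage (SE 0.20, adjusted p = 0.0023) that was not called at the large stage (-0.57, SE 0.20, adjusted p = 0.212). Sterile J03 buds read 3014 and 4551 in small, 1283 and 1716 in middle and 5786 and 5179 in large buds. The 2 large replicates thus stood above both small ones, and the middle ones below. AT1G12010 fell by 1.24 from small to middle buds (SE 0.20, adjusted p = 0.000472) and rose by 1.79 from middle to large buds (SE 0.20, adjusted p = 3.04e-05). Both J03 calls held in all 13 alternatives, whereas the J10 call was lost without small replicate 2 (adjusted p = 0.0554).

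**Figure D4:**
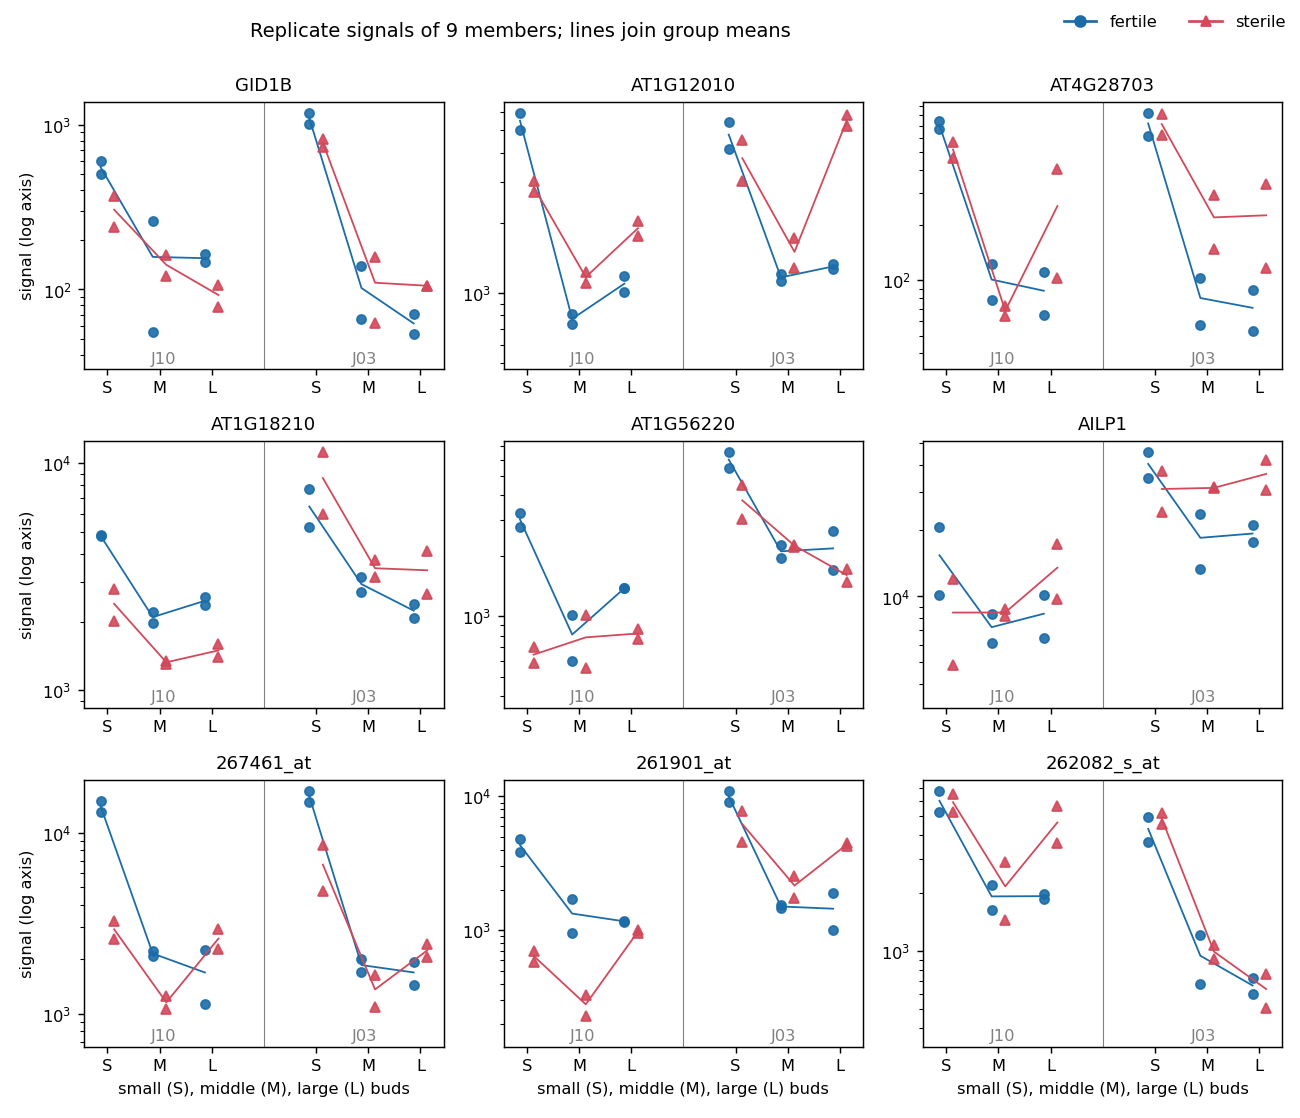
Replicate signals on a log axis of 9 members in small (S), middle (M) and large (L) buds of J10 (left of each panel) and J03 (right), circles for fertile and triangles for sterile replicates, with lines joining group means. AT1G12010 reads 5786 and 5179 in large sterile J03 buds against 1269 and 1329 in fertile ones, and 262082_s_at is high in large sterile J10 buds and low in large sterile J03 buds. The lower fertile signals of middle and large buds are set by the rule.

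The next 4 members encode a calcium-binding protein and DNA-binding proteins, and 1 of them had a called fall in sterile buds. AT1G18210 encodes a calmodulin-like protein with EF-hand calcium-binding motifs. Its signals were 5963 and 11255 in small, 3738 and 3159 in middle and 2655 and 4100.4 in large buds in sterile J03, and 2017 and 2789 in small, 1351 and 1304 in middle and 1406 and 1590.5 in large buds in sterile J10. In J03 it fell by 1.23 in middle (SE 0.25, adjusted p = 0.00594) and 1.32 in large buds (SE 0.25, adjusted p = 0.00349). In J10 the changes were -0.79 and -0.64 (adjusted p = 0.208 and 0.284). Both J03 calls were lost without small replicate 2 (adjusted p = 0.252 and 0.158), which held the highest of the 4 small-bud signals; the middle call was also lost without middle replicate 2 and the large call without large replicate 1. AT1G21000 and AT1G76590 belong to the PLATZ family of zinc-dependent DNA-binding proteins. AT1G21000 read 959 and 779.5 in small, 379.8 and 383 in middle and 1041 and 692 in large buds in sterile J10 and 1658 and 2152 in small, 1097 and 984 in middle and 2312 and 1942 in large buds in sterile J03, a dip at the middle stage with changes of -0.84 and -0.82 (adjusted p = 0.229 and 0.151). For AT1G76590 the 4 changes lay between -0.48 and 0.32. AT1G61660 encodes the basic helix-loop-helix factor bHLH112, and its 4 changes lay between -0.25 and 0.70, with no call.

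Of AT1G56220, AILP1, AT4G30650 and CCL, members of families known from dormancy, stress or the day cycle, 1 had a called fall in sterile buds. AT1G56220 belongs to the dormancy/auxin-associated family, whose transcripts mark resting buds and sugar shortage in other plants. Fertile J10 gave 3272 and 2787 in small, 1018 and 601 in middle and 1377 and 1375 in large buds, whereas sterile J10 gave 582 and 703 in small, 1014 and 553 in middle and 866 and 772 in large buds. Small sterile J10 buds were thus no higher than later ones, and its changes were -0.06 and 0.29 (adjusted p = 0.984 and 0.836). In J03 the fertile buds read 6579.6 and 5465 in small, 2249 and 1955 in middle and 1702 and 2647 in large buds, and the sterile buds 3052 and 4490.2 in small, 2273 and 2214 in middle and 1477 and 1725 in large buds. AT1G56220 fell by 1.17 in large sterile J03 buds (SE 0.31, adjusted p = 0.0477), a call that was lost without any 1 of the 4 replicates compared (adjusted p up to 0.411 without small replicate 2). The other 3 tested genes of a list of 14 dormancy and sugar-starvation genes, AT3G15450, AT4G27450 and AKINBETA1, had no call in any of the 4 sterile comparisons.

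AILP1 belongs to the aluminium-induced protein family. It read 24315 and 37537 in small, 31474 and 31103 in middle and 30517 and 41919.6 in large buds in sterile J03 and 4863 and 12025 in small, 8135 and 8772 in middle and 9778 and 17283 in large buds in sterile J10. Its 4 changes from small buds were 0.14, 0.74, 0.06 and 0.10, all above 0, although the fertile buds fell by 1.01 on average. AT4G30650 belongs to the RCI2 family of small membrane proteins, known for induction by cold and salt. It had changes of 0.05 and 0.22 in sterile J10 and -0.93 and -0.62 in sterile J03, without a call. CCL, a transcript that cycles with the day in Arabidopsis, read 458 and 568 in small sterile J10 buds and 378 and 556 in small sterile J03 buds, against 1661 and 1389 and 1173 and 1469 in the fertile ones. The 4 sterile changes of CCL ran from -0.55 to 0.27, with no call. Buds were collected at about the same time of day, per the labels.

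Besides the ACC oxidase gene, 5 members belong to enzyme or lipid-binding families, and none of these 5 passed the test in any of the 4 sterile comparisons. AT3G15290, of the 3-hydroxyacyl-CoA dehydrogenase family, had -0.83 and -0.93 in J03 and 0.26 and 0.08 in J10. AT1G01800, a short-chain dehydrogenase, had changes between -0.78 and -0.44. AT5G03610, of the GDSL esterase and lipase family, had -0.60 and -0.61 in J10 and -0.11 and -0.07 in J03. AT3G23080, of the START lipid-binding superfamily, ran from -0.59 to 0.02. AT2G32030, of the GNAT acetyltransferase family, read 639 and 688 in small, 182 and 219 in middle and 553 and 612 in large buds in sterile J03, with changes of -1.33 and -0.34. Adjusted p-values of these 5 members were 0.15 or more throughout.

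The remaining 6 members with 1 gene held 2 with a called fall. AT4G28703 encodes a cupin-fold protein. Fertile J10 and J03 read 668 and 738 in small, 78.4 and 124 in middle and 64.3 and 111 in large buds and 819.6 and 617 in small, 103 and 57.1 in middle and 88.8 and 52.8 in large buds. Sterile J10 read 571 and 464 in small, 64.2 and 72.2 in middle and 102 and 406 in large buds, and sterile J03 618 and 807 in small, 293 and 148 in middle and 336 and 117 in large buds. Small buds lay above all later ones in each of the 4 kinds of plant. In sterile J10 it fell by 1.79 in middle buds (SE 0.39, adjusted p = 0.0269), and in sterile J03 by 1.55 in large buds (SE 0.39, adjusted p = 0.0354). Each call was lost without any 1 of the 4 replicates compared, with adjusted p up to 0.262 in J10 (without small replicate 1) and 0.259 in J03 (without small replicate 2).

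AT5G57785, of unknown function, read 968 and 1209.8 in small, 334 and 224 in middle and 1030.2 and 1013 in large buds in sterile J03. It fell by 1.69 from small to middle buds (SE 0.27, adjusted p = 0.000362) and rose by 1.64 from middle to large (SE 0.27, adjusted p = 0.00201), the rise being lost without middle replicate 2 or large replicate 1 (adjusted p = 0.124 and 0.0732). RAD4, which takes part in nucleotide-excision repair of DNA, read 1473 and 1175 in small, 939.6 and 1148 in middle and 1376 and 1209 in large buds in sterile J10, against 1443 and 974 in small, 558 and 372 in middle and 609.8 and 361 in large buds in fertile J10. The large sterile J10 buds overlapped the small ones, and the 4 sterile changes of RAD4 were -0.32, -0.07, -0.57 and -0.82, without a call. AT1G25275, a thionin-like protein, AT4G01090, of unknown function, and AT5G11350 had no call. Their 12 sterile changes ran from -1.38 for AT5G11350 to 0.37 for AT4G01090.

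Among the 34 members with no or several genes, 22 had a called fall in at least 1 sterile comparison. The share of all tested probe sets with such a call was not computed, so the count stands without a background. The members named here were singled out after their values were seen. 267461_at had the largest mean fertile fall, from 14974 and 13026 in small to 1139.6 and 2243 in large fertile J10 buds and from 16955 and 14768 to 1443 and 1943 in J03. Sterile J03 read 4760.0 and 8549 in small, 1085 and 1644 in middle and 2056 and 2426 in large buds, and it fell by 2.15 in middle (SE 0.27, adjusted p = 1.97e-05) and by 1.45 in large buds (SE 0.27, adjusted p = 0.00299). Sterile J10 read 2581 and 3273 in small, 1257 and 1059 in middle and 2284 and 2923 in large buds, with a fall of 1.26 in middle buds (SE 0.27, adjusted p = 0.0253) and -0.13 in large buds (adjusted p = 0.943). The J10 call was lost without any 1 of the 4 replicates compared (adjusted p up to 0.295 without small replicate 2), and the large J03 call without small replicate 2 (adjusted p = 0.128) or large replicate 1.

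260023_at read 546 and 385 in small, 88.0 and 122 in middle and 66.6 and 374 in large buds in sterile J10 and 952 and 2102 in small, 355 and 319.5 in middle and 598 and 474 in large buds in sterile J03. It was above its later buds at the small stage in every sterile replicate, yet passed in 1 comparison, middle J03, with a fall of 1.82 (SE 0.42, adjusted p = 0.0177); the call was lost without either middle replicate or small replicate 2 (adjusted p = 0.342 for the last). 247182_at fell in large buds of both lines, by 1.97 in J10 (SE 0.35, adjusted p = 0.00362) and 2.30 in J03 (SE 0.35, adjusted p = 0.000413). Its sterile signals were 1651 and 1075 in small, 1041 and 512 in middle and 326 and 279 in large buds in J10 and 1502 and 1279.6 in small, 392 and 748 in middle and 195 and 202 in large buds in J03. The J03 call of 247182_at held in all 13 alternatives, and the J10 call was lost without small replicate 1 (adjusted p = 0.117).

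The second question was whether sterile J10 and sterile J03, of different genotype, differed in the members. In small buds 12 members were lower in J10 and none higher, against 0.92% of tested probe sets called lower. In middle buds 9 were lower, against 1.7%, and 2 higher, against 0.685%. In large buds 11 were lower, against 1.66%, and 3 higher, against 0.991%. The median difference of J10 minus J03 was -0.47 in small, -0.23 in middle and -0.51 in large buds, and that of all tested probe sets was within 0.01 of 0. Line and RNA integrity moved together here: 3' to 5' ratios of sterile J10 replicates (1.50 to 1.95) lay above those of sterile J03 (0.894 to 1.33). With that ratio as a covariate 6 members were called lower in small buds, 2 in middle and 2 in large buds. Called higher were 0, 1 and 3. Calls in either direction over all tested probe sets went from 175, 335 and 372 to 46, 78 and 64. Leaving out 1 replicate gave 5 (without J03 small replicate 2) to 13 members lower in small buds, 3 (without J03 middle replicate 1) to 6 in middle buds and 6 in large buds whichever large replicate was left out.

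**Figure D5:**
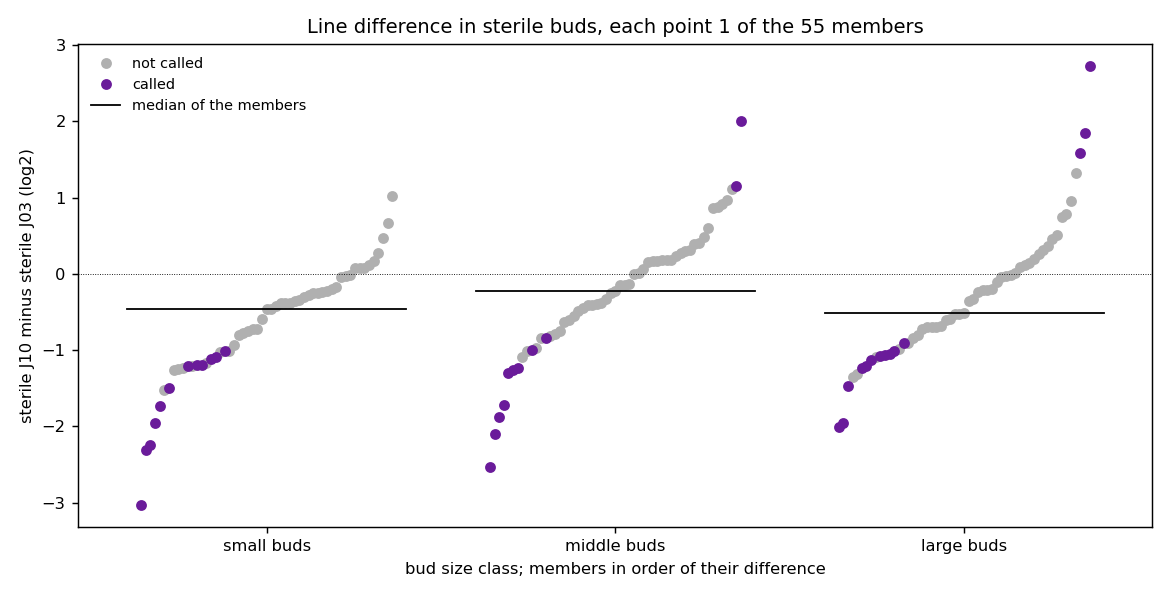
Difference of sterile J10 minus sterile J03 in log2(signal + offset) for each of the 55 members (points, in order of their difference within a size class) in small, middle and large buds, purple where limma called it, with the median of the members as a black line. In small buds the 12 called points lie below 0, with 261901_at lowest at -3.03; the highest point in large buds is 262082_s_at at 2.73.

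Small buds of AT1G56220 read 582 and 703 in sterile J10 and 3052 and 4490.2 in sterile J03, a difference of -2.30 (SE 0.31, adjusted p = 0.000328) that held in all 13 alternatives. The fertile small buds of the lines differed in the same direction, with 3272 and 2787 in J10 and 6579.6 and 5465 in J03. AT1G18210 was 1.74 lower in small sterile J10 buds (SE 0.25, adjusted p = 0.00045), also in all 13 alternatives, and 1.30 lower in middle (SE 0.25, adjusted p = 0.00465) and 1.06 lower in large buds (SE 0.25, adjusted p = 0.0184). With the integrity covariate the middle and large calls of AT1G18210 were lost (adjusted p = 0.182 and 0.391), as was the middle call without J03 middle replicate 1 and the large call without either J10 large replicate or J03 large replicate 2. AILP1 was lower in small (-1.96, SE 0.40, adjusted p = 0.0119) and middle buds (-1.88, SE 0.40, adjusted p = 0.0114), and the small-bud call was lost without J10 small replicate 1 or J03 small replicate 2 (adjusted p = 0.268 and 0.218). The middle-bud call of AILP1 was lost without J10 middle replicate 1 or either J03 middle replicate (adjusted p up to 0.101 without J03 middle replicate 2), and with the integrity covariate (adjusted p = 0.0561). AT1G21000 was lower at all 3 sizes, with -1.21 (SE 0.27, adjusted p = 0.0211), -1.23 (SE 0.27, adjusted p = 0.0146) and -1.21 (SE 0.27, adjusted p = 0.0142). These 3 calls of AT1G21000 were lost with the integrity covariate, at adjusted p of 0.257, 0.293 and 0.356, the small-bud one also without J10 small replicate 2 or J03 small replicate 2, the middle one without any 1 of the 4 middle replicates, and the large one without J10 large replicate 2 or either J03 large replicate.

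AT4G30650 ran the other way. It read 1029 and 601 in small, 761 and 879 in middle and 1174 and 736 in large buds in sterile J10 and 217 and 493 in small, 99.7 and 145 in middle and 174 and 215 in large buds in sterile J03, and was 2.00 higher in middle (SE 0.35, adjusted p = 0.002) and 1.85 higher in large J10 buds (SE 0.35, adjusted p = 0.00366). The middle call held in all 13 alternatives, and the large call was lost without J10 large replicate 1 (adjusted p = 0.115). Fertile J10 also lay above fertile J03 at every size, with small-bud signals of 1959 and 1351 against 431 and 516. AT1G12010 was 1.47 lower in large J10 than large J03 sterile buds (SE 0.20, adjusted p = 0.000165), again in all 13 alternatives. AT1G25275 was 1.13 lower there (SE 0.31, adjusted p = 0.0479), a call lost without any 1 of the 4 large replicates (adjusted p up to 0.315 without J03 large replicate 1); with the integrity covariate its difference was -0.46 (adjusted p = 0.666). Among unnamed members 261901_at stood lowest, with 583 and 705 in small sterile J10 and 4588 and 7832 in small sterile J03 buds, a difference of -3.03 (SE 0.28, adjusted p = 1.55e-06). In fertile small buds it read 4811 and 3840.5 in J10 and 10918 and 9086 in J03.

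Other gene groups also differed between the sterile lines. Of 8 tested photosynthesis genes, RCA and PRK were lower in small J10 buds (differences of -1.14 and -1.04, adjusted p = 0.00827 and 0.0255). The summed signal of all 8 genes per small-bud replicate was 12616 to 13732 in sterile J10 and 17786 to 21839 in sterile J03. In middle buds 2 of the 8 were lower and 1 higher, and in large buds 4 were lower. The tapetal acyltransferase SHT was lower in middle sterile J10 than J03 buds (-3.14, SE 0.36, adjusted p = 1.04e-05), with mean signals of 859.7 and 8269. Of 6 tested tapetum and early anther regulators none differed in small or middle buds and AT5G07230 was higher in large J10 buds (1.55, SE 0.26, adjusted p = 0.00105). The summed signal of the 6 was 2896 to 3393 in small sterile J10 and 3796 to 3994 in small sterile J03 replicates. Of the dormancy and sugar-starvation genes besides AT1G56220, AT3G15450 and AT4G27450 were lower in small J10 buds (differences of -0.86 and -1.33, adjusted p = 0.027 and 0.0167). Apart from AT1G56220, these genes were not followed with the integrity covariate or without single replicates. The part of these tissue markers in the members' differences was not tested.

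The third question was whether the size of the fall differed between the sterile lines. For middle buds none of the 55 members passed the test of the difference itself, against 0.0999% of tested probe sets in either direction. An unadjusted p under 0.05 was reached by 12 of the 55 members and by 868 of all 14021 tested probe sets. The median line difference of the change was 0.44, a smaller fall in J10, and GID1B had 1.35 (95% interval 0.20 to 2.50, adjusted p = 0.663). For large buds 2 members passed, both with a higher change in J10 than in J03, against 0.0499% called in that direction. 245668_at read 1883 and 1669.6 in small, 688 and 717 in middle and 2283 and 1880.4 in large buds in sterile J10 and 1805 and 2843 in small, 252 and 149 in middle and 476 and 869 in large buds in sterile J03, a line difference of 2.01 (SE 0.39, adjusted p = 0.0408). 262082_s_at, paired with several genes, read 6509 and 5251 in small, 2874 and 1444 in middle and 5615 and 3627 in large buds in sterile J10 and 5155 and 4529 in small, 915 and 1073 in middle and 509.8 and 764 in large buds in sterile J03, a line difference of 2.45 (SE 0.45, adjusted p = 0.038). In J10 the large sterile buds were back near the small ones, and in J03 they were far below them.

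Both calls changed with single replicates. That of 245668_at was lost without J10 small replicate 1 or 2, J10 large replicate 1 or 2, J03 small replicate 2 or J03 large replicate 1, with adjusted p of up to 0.369 in the run without J10 small replicate 2. That of 262082_s_at was lost without J10 small replicate 1 or 2, J10 large replicate 1, J03 small replicate 1 or 2, or J03 large replicate 1 (adjusted p = 0.292 without J10 large replicate 1). The falls of 262082_s_at within sterile J03, -2.19 in middle (SE 0.32, adjusted p = 0.000146) and -2.84 in large buds (SE 0.32, adjusted p = 6.28e-06), held in all 13 alternatives.

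A rise from middle to large buds was tested after the levels had been seen. In sterile J10, 2 members rose, 245668_at (1.69, SE 0.27, adjusted p = 0.00724) and 261901_at (1.51, SE 0.28, adjusted p = 0.0222), against 0.0214% of tested probe sets called higher. In sterile J03, 4 rose, against 0.185%: AT1G12010, AT5G57785, 245668_at (1.27, SE 0.27, adjusted p = 0.0271) and 245803_at (1.21, SE 0.19, adjusted p = 0.00131). No member had a called fall from middle to large buds in either line, though 17 in J10 and 14 in J03 had a change below 0. Without any 1 of the 4 J10 replicates neither J10 call was made. Leaving out 1 J03 replicate gave 1 to 4 rises, with 1 rise without middle replicate 2 and 2 without large replicate 1. The median change from middle to large buds over the members was 0.28 in J10 and 0.29 in J03.

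Sterile buds can also be set against the fertile buds that chose the members, as a description with nothing read from it. In small buds 48 of 55 members were below the fertile mean in J10 and 42 in J03. Over all tested probe sets these shares were 48.8% and 50.8%. At least 0.8 below it were 21 and 7 members, against 2.56% and 1.97% of all tested probe sets. The median differences were -0.71 and -0.23. In large buds 35 members in J10 and 51 in J03 were above the fertile mean, with medians of 0.21 and 0.52. Of all tested probe sets 48.2% and 49.9% were below the fertile mean there. At least 0.8 above it were 9 and 14 members, against 3.92% and 2.73%. The largest of these was AT1G12010 in large J03 buds at 1.98, followed by 247553_at in large J10 buds at 1.71 and AT1G01800 in large J03 buds at 1.52. Since a probe set with a high fertile small-bud signal and low later ones was more likely to be chosen, sterile buds would differ from them in these directions by the choice alone. In J10, 3' to 5' ratios were 1.50 to 1.95 in sterile and 0.8825 to 1.49 in fertile replicates. Sterility and RNA integrity cannot be told apart in that line.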

How the data were processed

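Expression was measured on 48 ATH1 arrays with rapeseed RNA. The authors deposited linear signal intensities computed with MAS5, per the submitters' processing notes, which give no version here. The 2% trimmed mean was 500.0 on every array, which shows a scaling before deposit. The 64 array controls were left out. Members and gene lists were chosen with earlier results of these data known.

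Signals were log2-transformed after adding a fixed offset near the lower quartile of signal, which understates changes of dim probe sets. Titles give each group biol_rep and tech_rep arrays numbered 1 and 2; a tech_rep array was read as the second hybridisation of the replicate with its number, and the pair was averaged. Array correlations bore this reading out in 6 of 6 J10 groups and 2 of 6 J03 groups. Nothing in the labels says which plants made up a replicate, so p-values measure the spread between these samples only, and the number of arrays limits the precision. No 2 arrays were identical.

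Probe sets entered the test where both replicates of a group reached the array median (14021). A linear model over the 12 groups (limma 3.58.1, R 4.3.3; 24 columns, 12 residual degrees of freedom, intensity trend) was checked on simulated data and used with Benjamini-Hochberg adjustment within each comparison. For simulated falls from small to middle sterile J10 buds, the model recovered 32% of log2 falls of 1 and 86% of log2 falls of 2. A true change near 1 can therefore go uncalled. All adjusted p-values are from this model, and n = 2 per group. Alternatives changed the filter, offset (32), normalization (quantile), hybridisations, samples fitted, blocks, an RNA-integrity covariate and the membership rule, and left out single replicates. Single genes were named by rule: largest fertile falls, called changes, highest sterile changes, threshold neighbours, and any member with 1 gene. Of 322 listed genes, 57 were annotated and 42 tested. Figures used matplotlib 3.10.9. Sequences were not used here.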

Additional observations from a re-analysis of the deposited data

Results flagged for a closer look

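Of the members' results, 2 stood out because the change from small to large buds differed between sterile J10 and sterile J03 in a test of the difference itself. For 245668_at the line difference was 2.01 (SE 0.39, adjusted p = 0.0408): the large-bud change was 0.30 in J10 and -1.71 in J03. For 262082_s_at it was 2.45 (SE 0.45, adjusted p = 0.038), from changes of -0.38 in J10 and -2.84 in J03. Each of these calls was lost in 6 of the 8 runs without a single replicate. Groups of 2 replicates are too small for a test of outlying values.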

How the results depend on the processing

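No called change of a member with a named value turned its sign in any alternative, and 23 of 96 called member results kept their call in all of them. Counts of members called lower in sterile J10 middle buds were 2 with first hybridisations only and 5 with only the compared groups fitted (8 in the report), and 1 to 7 without a single replicate. For J10 large buds (6) they were 3 without the filter on dim probe sets, 0 with first hybridisations only, 3 with the integrity covariate, 2 among members with a fall of at least 1.0, and 0 to 3 without a single replicate. For J03 middle buds (21) leaving out a replicate gave 9 to 15, and for J03 large buds (15) 5 to 11; there 9 were called among members with a fall of at least 1.0. J10 minus J03 gave 6 (small), 2 (middle) and 2 (large) members lower and 0, 1 and 3 higher with the covariate. With first hybridisations only, 5 members were lower in middle buds. The line difference in large buds (2) was 0 without the filter, with offset 32, from first hybridisations alone, and where replicates formed a random block over all 48 arrays. It was 1 with only the compared groups and 1 without the array least like its group, and 0 to 2 without a replicate. In middle buds (0) it was 1 without that array. The rise from middle to large J10 buds (2) was 0 with first hybridisations only, 4 with the random block, 1 with the compared groups, and 0 without that array or any 1 replicate; that in J03 (4) was 1 to 4. The cause was not tested. Median changes kept their sign throughout. Membership was 49, 27, 59 and 80 with each line held to a signal of 500, a fall of 1.0, first hybridisations and offset 32, and 49, 27, 31 and 55 of these were members. The 2 (J10) and 9 (J03) large-bud falls among members with a fall of at least 1.0 were thus out of 27 members. The 6 and 15 in the report were out of 55.

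Nothing in the labels says that a replicate number marks shared plants or days, and with 2 numbers per group the samples were not treated as paired. Deviations of same-numbered samples correlated by 0.094 to 0.292 in J10, where 14 of 15 pairs of groups were over 0.1, and by -0.045 to 0.080 in J03, where none was. With a replicate block within each line, the falls numbered 10 and 9 in J10 (middle, large) and 24 and 18 in J03, the J10 minus J03 calls 13, 10 and 13 lower, the line differences 0 and 2, and the rises from middle to large buds 2 in J10 and 5 in J03. With 2 replicates a group, changes of dim members such as GID1B are measured with SEs of about 0.37.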
